A study of Mus musculus with 8 samples.

Results

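The genes described here were 43 imprinted genes of the mouse that lie outside the Dlk1-Dio3 domain. They were taken by name from the 22878 gene entries measured, and each name matched exactly 1 entry. The list was drawn up with earlier results of these data known. The genes belong to 19 imprinted clusters or single loci, among them H19-Igf2, Kcnq1, Peg3, Peg10-Sgce, Snrpn, Grb10, Igf2r-Airn, Nnat-Blcap and Gnas. In the usual assignment 25 of them are expressed from the paternal allele and 18 from the maternal allele, some of them only in certain tissues. A filter that kept genes with an FPKM (the sequenced fragments of a gene scaled by its transcript length in kilobases and by the size of the library) of at least 1 in at least 1 library was passed by 39 of the 43. Of these 39 genes, 32 were at 1 or above in every library, so that the other 7 entered the tests through the lines in which they were higher. Those 7 were Airn, Calcr, Kcnq1ot1, Magel2, Mkrn3, Nap1l5 and Zim1.

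Poly(A)-selected RNA was sequenced from 5 mouse pluripotent lines. R1 is an embryonic stem cell (ESC) line. The others are secondary induced pluripotent stem cell (iPSC) lines, grown from somatic cells of adult all-iPSC mice, which were themselves made by tetraploid complementation with iPSCs that carried doxycycline-inducible Oct4, Sox2, c-Myc and Klf4. Line 16-6 came from bone marrow cells selected with c-Kit beads (mesodermal hematopoietic progenitors), line 32 from adipocyte progenitors of inguinal fat, also mesodermal, line S8 from ectodermal epidermal cells of abdominal skin and line T2 from the endodermal lining of the stomach. Doxycycline was withdrawn before colonies were picked, and ESCs and iPSCs alike were grown on mitomycin C-treated embryonic fibroblast feeder cells of ICR mice in serum and LIF. Replication was uneven, with 2 libraries for each of R1, 16-6 and 32 but a single library for S8 and for T2. Each tissue of origin was thus represented by 1 line, and tissue of origin, line and, for S8 and T2, library cannot be told apart. The strain of the iPSC lines was not given in the sources used here, and the labels name the embryo as the tissue of all 8 samples.

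Imprinted genes are expressed from only the maternal or only the paternal copy, because differentially methylated regions set in the egg or the sperm are kept through cell division. Many paternally expressed genes promote growth of the fetus, and several maternally expressed genes restrain it. Pluripotent cells in culture are known to gain or lose some of these marks. The values below sum both alleles, and in a bulk sample fewer cells of a type and less RNA per cell cannot be told apart.

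The number of fragments implied by the confidence limits of the FPKM was alike in the 8 libraries and came to between 15.5 and 16.7 per library in units of 1000000, and the upper quartile of FPKM lay between 16.29 and 17.61. The study lists more reads for S8 and T2 than for the other libraries, which the implied fragments do not show. The pluripotency markers Pou5f1, Nanog, Sox2, Zfp42, Esrrb and Klf4 were present in every library, with summed levels of 1896 and 1922 FPKM in R1, 1087 and 1109 in 16-6, 1793 and 1842 in 32, 1636 in S8 and 1248 in T2. The 10 fibroblast markers (Col1a1, Col1a2, Col3a1, Lum, Postn, Thy1, Pdgfrb, Fbn1, Lox and Twist2) were chosen because fibroblast feeder cells were present in these cultures, and the source of their RNA was not tested. Their summed level was 704.4 and 749.1 FPKM in R1, 1711 and 1705 in 16-6, 71.28 and 70.64 in 32, 386 in S8 and 586.2 in T2, and none of the 10 was at 0 in any library. Against R1, 6 of the 10 rose and 1 fell in 16-6, all 10 fell in 32, 6 fell in S8 and 4 fell in T2. The list was thus split in 16-6, where Postn (2.28, SE 0.08) and Col1a1 (1.71, SE 0.05) rose, Lum fell (-2.72, SE 0.10) and Col3a1 did not pass (-0.20, SE 0.05). Of the 6 trophoblast markers, Elf5, Plac1 and Prl3d1 did not reach 1 FPKM in any sample, and nor did Sox17 and Sox7 of the 6 primitive endoderm markers. The summed level was 3.992 to 17.83 FPKM for the trophoblast list, in which only Eomes passed the test described next (higher in 16-6 and 32), and 7.174 to 25.64 FPKM for the primitive endoderm list, in which Dab2 was lower in 32, S8 and T2 and Lama1 in S8 and T2. Of the 6 pluripotency markers 2 were lower than in R1 in 16-6, 1 in 32, 3 in S8 and 3 in T2, Zfp42 among them each time.

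Differences were called where the limma adjusted p was below 0.05 over all 13693 genes tested and the difference in log2(FPKM + 1) was at least 1. The phrase past the threshold refers to this rule, and rose and fell are used only for such genes. The test was based on the spread of the replicate libraries of R1, 16-6 and 32, with 3 residual degrees of freedom, and the lone libraries of S8 and T2 were assumed to vary alike. Since the labels do not say that replicates were separate cultures, these p-values measure a spread that may be technical.

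Of the 39 imprinted genes tested, 17 rose or fell in at least 1 iPSC line, in a manner that depended on the line, and the other 22 passed the threshold in none. The share of all genes that passed in at least 1 line was not counted. The 17, and their split by number of lines below, are thus a description. Against R1, 5 of 39 genes (12.8%) passed the threshold in 16-6, beside 7.11% of all genes tested. In line 32 it was 5 of 39 (12.8%), beside 9.77% of all genes, in S8 9 of 39 (23.1%), beside 16.7%, and in T2 7 of 39 (17.9%), beside 10.5%. Each share was above that of all genes, by an excess that was not tested. In 16-6, 4 rose and 1 fell, beside 3.58% and 3.53% of all genes. In 32, 1 rose and 4 fell, beside 1.54% and 8.23%. In S8, 2 rose and 7 fell, beside 6.93% and 9.74%, and in T2 4 rose and 3 fell, beside 3.95% and 6.54%. Quantile normalization of the libraries changed the split to 5 higher and 0 lower in 16-6 and to 4 higher and 3 lower in 32, and scaling by median ratios gave 4 higher and 0 lower in 16-6. By adjusted p alone, without the fold limit, 26 to 28 of the 39 genes differed from R1 in each line, beside 55.6% to 66.7% of all genes. Without the first library of R1 only 2 of the 39 genes passed in 16-6, Nnat and Peg13, a share below the 7.3% of all genes that passed in that fit. Of the 17 genes, 10 passed in 1 line, 5 in 2 lines and 2, H19 and Igf2, in 3 lines.

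**Figure D1:**
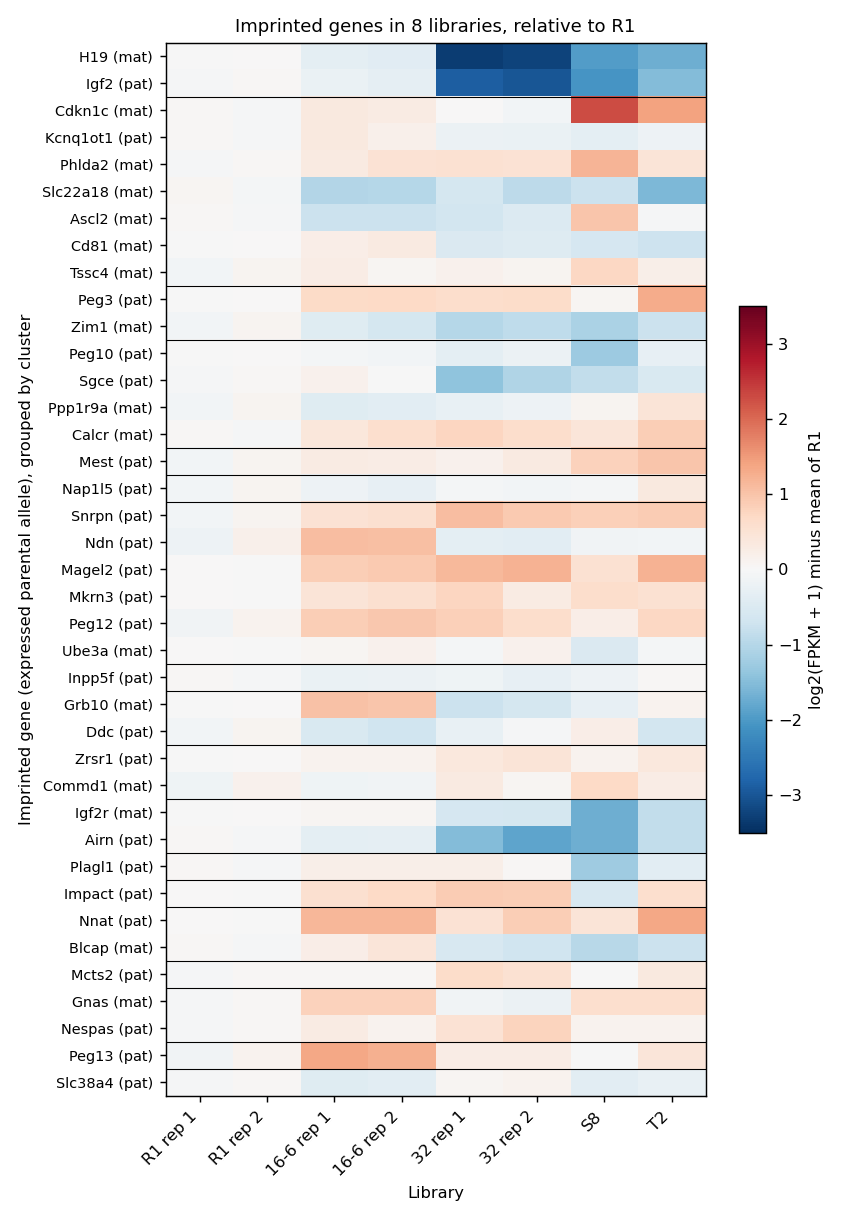
Each row is 1 of the 39 tested imprinted genes, marked by its expressed parental allele (pat, mat) and grouped by cluster, and each column is 1 library. Color gives log2(FPKM + 1) minus the mean of the 2 libraries of R1, and the darkest cells are H19 and Igf2 in both libraries of 32, at mean differences of -3.28 and -2.94.

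H19 and Igf2, neighbours on chromosome 7 that share enhancers and are controlled by a region methylated on the paternal copy, showed the widest ranges of line means among the members on the log2(FPKM + 1) scale, 3.28 and 2.94. H19 is a long noncoding RNA of the maternal allele (chr7:149761437-149764051, mm9, the build of all gene positions given here), and Igf2 encodes insulin-like growth factor 2, a fetal growth factor, from the paternal allele (chr7:149836673-149846940). H19 measured 228.2 and 232.7 FPKM in R1, 180.1 and 175.8 in 16-6, 22.07 and 23.58 in 32, 58.73 in S8 and 70.12 in T2. R1 was highest, 16-6 next, T2 and S8 far below, and 32 lowest, with no overlap between lines. Igf2 measured 110.5 and 116.0 FPKM in R1, 96.02 and 91.07 in 16-6, 14.33 and 13.37 in 32, 26.56 in S8 and 39.20 in T2. The lines took the same order for both genes.

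The log2 difference of H19 from R1 was -3.28 (SE 0.04, limma adjusted p = 8.29e-06) in 32, -1.95 (SE 0.05, limma adjusted p = 5.64e-05) in S8 and -1.70 (SE 0.05, limma adjusted p = 0.000103) in T2. In 16-6 it was -0.37 (SE 0.04), within the fold limit. For Igf2 it was -2.94 (SE 0.05, limma adjusted p = 1.12e-05) in 32, -2.05 (SE 0.07, limma adjusted p = 7.04e-05) in S8 and -1.51 (SE 0.07, limma adjusted p = 0.000199) in T2, with -0.27 (SE 0.05) in 16-6. Among the 10 contrasts between lines, H19 passed in 8 and Igf2 in 7. In the order of H19 levels, R1 and 16-6 did not differ past the threshold, nor did T2 and S8, while 16-6 against T2 and S8 against 32 did. The ratio of H19 to Igf2 FPKM stayed between 1.54 and 2.21 over the 8 libraries, while H19 itself ranged from 22.07 to 232.7. The summed fibroblast markers, lowest in 32 and next lowest in S8, were likewise low where H19 and Igf2 were low. In 16-6 they were above R1 (1711 and 1705 against 704.4 and 749.1 FPKM summed), whereas H19 and Igf2 there were slightly below R1. Over the 5 line means the correlation with the mean log2 level of the fibroblast markers was 0.95 for H19 and 0.95 for Igf2, a description over 5 points that share their libraries. The part of feeder cells in these levels was not tested.

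Igf2r, the receptor that takes up IGF2 and directs it to lysosomes, is expressed from the maternal allele (chr17:12875272-12962572), and Airn is the paternal noncoding RNA whose transcription across the Igf2r promoter silences that copy (chr17:12934177-13052750). Both were below R1 in 32, S8 and T2. Igf2r measured 51.59 and 51.74 FPKM in R1, 54.09 and 54.14 in 16-6, 33.98 and 33.12 in 32, 15 in S8 and 27.86 in T2. It fell only in S8 (log2 difference -1.72, SE 0.04, limma adjusted p = 4.9e-05), and the differences of -0.61 (SE 0.03) in 32 and -0.87 (SE 0.04) in T2 stayed under the fold limit. Airn measured 3.434 and 3.119 FPKM in R1, 2.369 and 2.439 in 16-6, 0.5056 and 0.1897 in 32, 0.3173 in S8 and 1.348 in T2. Airn fell in 32 (-1.68, SE 0.13, limma adjusted p = 0.00046) and in S8 (-1.70, SE 0.16, limma adjusted p = 0.000613). Airn was below 1 FPKM in both of these lines and entered the test through R1, 16-6 and T2, where it was higher. Few fragments lie behind these values, 16.6 and 17.7 in R1 and 2.5 to 7.5 in 32 and S8 as implied by the confidence limits. The gene bodies share 28396 bases, and the library kit does not mark strand, so that strand cannot assign reads of the shared stretch. In the GENCODE annotation of mm9 no exons of Igf2r and Airn overlap by 50 bases or more. Reads on those exons can thus be told apart by position, whereas intronic reads of the shared stretch cannot. Airn also followed the fibroblast markers over the 5 line means (correlation 0.86, against 0.52 for Igf2r), and their part was not tested. The ratio of Igf2r to Airn ran from 15 in the first library of R1 to 175 in the second library of 32.

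The sequences below are the 250 bases before the transcription start of Igf2r, Airn and Igf2, shown because Igf2r and Airn moved in the same direction in S8 although they are read from opposite alleles, and because Igf2 was lowest in the line in which its neighbour H19 was lowest. They are RefSeq sequences of GRCm38.p6, given 5′ to 3′ on the strand of the gene, at chr17:12769707-12769956 (minus strand) for Igf2r, chr17:12741061-12741310 (plus strand) for Airn and chr7:142658805-142659054 (minus strand) for Igf2, the window with the most CpG of the 4 listed for that gene. Capitals mark CpG dinucleotides, the sites that DNA methylation occupies.
Igf2r: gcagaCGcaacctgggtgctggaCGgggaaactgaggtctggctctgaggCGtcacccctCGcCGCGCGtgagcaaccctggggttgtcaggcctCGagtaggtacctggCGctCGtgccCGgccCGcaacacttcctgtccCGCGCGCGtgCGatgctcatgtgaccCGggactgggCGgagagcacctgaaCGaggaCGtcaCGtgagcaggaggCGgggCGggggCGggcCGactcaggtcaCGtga
Airn: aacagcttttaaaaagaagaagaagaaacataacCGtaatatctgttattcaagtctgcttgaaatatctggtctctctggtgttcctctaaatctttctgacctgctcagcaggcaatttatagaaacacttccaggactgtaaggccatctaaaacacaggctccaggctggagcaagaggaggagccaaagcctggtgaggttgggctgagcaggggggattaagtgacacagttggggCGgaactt
Igf2: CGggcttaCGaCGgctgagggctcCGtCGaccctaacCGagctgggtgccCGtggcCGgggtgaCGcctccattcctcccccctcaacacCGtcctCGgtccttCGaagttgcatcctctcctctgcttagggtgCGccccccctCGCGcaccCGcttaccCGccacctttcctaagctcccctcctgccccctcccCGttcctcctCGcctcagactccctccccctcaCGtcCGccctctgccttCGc
The Igf2r window holds 27 CpG and the Igf2 window 22, while the Airn window holds 2. Whether these windows lie in differentially methylated regions was not examined, and methylation was not measured in the files used here.

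Grb10 encodes an adaptor that dampens insulin and IGF signalling and is maternally expressed in most tissues (chr11:11830502-11937423). It measured 54.28 and 55.57 FPKM in R1, 113.8 and 108.4 in 16-6, 32.11 and 35.45 in 32, 44.45 in S8 and 59.81 in T2. By level, 16-6 was highest and 32 lowest. The difference of 16-6 against T2 (0.88, SE 0.07) stayed under the fold limit. So did those of 32 against R1 (-0.69, SE 0.06), S8 (-0.39, SE 0.07) and T2 (-0.81, SE 0.07). The rise in 16-6 was 1.00 on the log2 scale (SE 0.06, limma adjusted p = 0.000299), just at the fold limit, and it came to 0.99 without the first library of R1 and 0.97 without the first library of 16-6. Against line 32 the difference was 1.69 (SE 0.06, limma adjusted p = 3.36e-05). The summed fibroblast markers were also highest in 16-6 and lowest in 32, and the correlation with their mean over the 5 lines was 0.90. Their part was not tested. Ddc, which encodes dopa decarboxylase and neighbours Grb10, ranged from 3.232 to 7.142 FPKM and passed no contrast.

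Plagl1, a paternally expressed zinc finger transcription factor that restrains the cell cycle (chr10:12810594-12851501), measured 7.504 and 7.157 FPKM in R1, 8.609 and 8.532 in 16-6, 8.557 and 7.533 in 32, 2.487 in S8 and 5.501 in T2. It fell in S8 (log2 difference -1.26, SE 0.09, limma adjusted p = 0.000294) and its value in T2 was -0.36 (SE 0.09). The other lines lay close to each other, with the libraries of 16-6 and 32 overlapping.

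**Figure D2:**
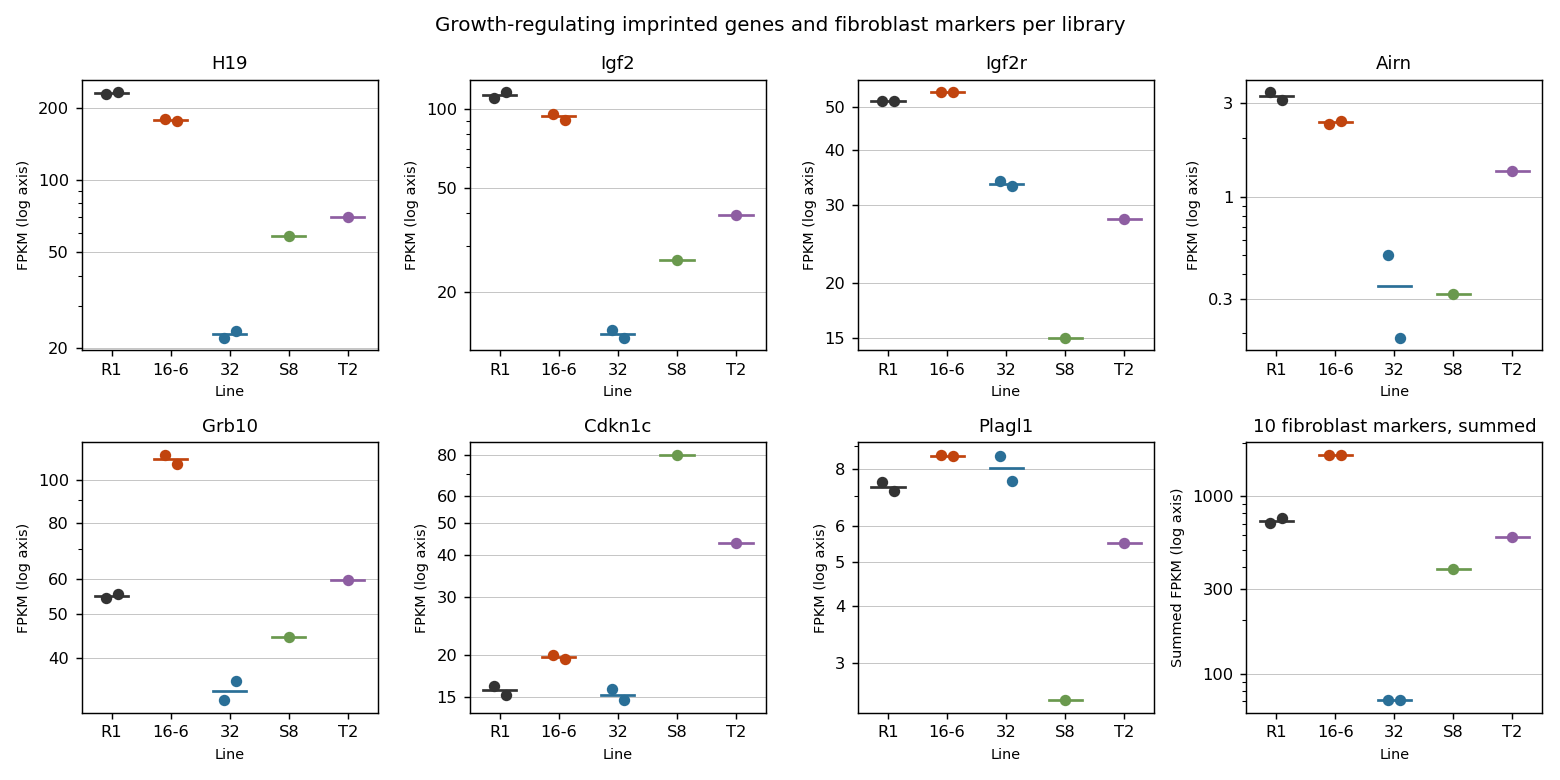
FPKM of 7 imprinted growth regulators and the summed FPKM of 10 fibroblast markers, on log axes, with 1 point per library and a bar at the mean of each line. H19 and Igf2 share the order R1, 16-6, T2, S8, 32, while Cdkn1c is highest in S8 (79.93) and T2 (43.33).

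In the Kcnq1 cluster on chromosome 7, where the paternal noncoding RNA Kcnq1ot1 keeps its maternally expressed neighbours silent on the paternal copy, 5 of 7 tested genes differed among the 5 lines in the F test with a range of at least 1 on the log2 scale, beside 34.5% of all genes, and did so in different patterns. Cdkn1c encodes p57, an inhibitor of cyclin-dependent kinases (chr7:150644244-150646955). It measured 16.19 and 15.22 FPKM in R1, 20.06 and 19.44 in 16-6, 15.84 and 14.65 in 32, 79.93 in S8 and 43.33 in T2. It rose in S8 (log2 difference 2.28, SE 0.07, limma adjusted p = 6.63e-05) and in T2 (1.41, SE 0.07, limma adjusted p = 0.00024), and the gap between T2 and the next line, 16-6, was itself past the threshold (16-6 against T2 -1.10, SE 0.07, limma adjusted p = 0.000468). S8 and T2 are the lines with a single library, and these values have no replicate of their own. The fibroblast markers did not follow Cdkn1c (correlation -0.07 over the 5 line means).

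Phlda2, which limits growth of the placenta (chr7:150687453-150688429), measured 94.70 and 99.74 FPKM in R1, 121 and 139.6 in 16-6, 141.6 and 139.6 in 32, 222.1 in S8 and 134.3 in T2. Every iPSC library was above both R1 libraries, and only S8 passed the threshold (1.18, SE 0.09, limma adjusted p = 0.000371), a call lost under quantile normalization, which gave 0.89. Slc22a18, an organic cation transporter (chr7:150659660-150685237), went the other way. It measured 5.657 and 4.979 FPKM in R1, 2.083 and 2.133 in 16-6, 3.129 and 2.326 in 32, 2.731 in S8 and 1.140 in T2, so that every iPSC library was below R1. It fell in 16-6 (-1.02, SE 0.12, limma adjusted p = 0.00215) and in T2 (-1.56, SE 0.15, limma adjusted p = 0.00116). The call in 16-6 was lost without the first library of R1 (-0.94) and under median ratio scaling (-0.98), and under quantile normalization the difference came to lie just inside the fold limit.

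Ascl2, a basic helix-loop-helix factor required in the trophoblast (chr7:150152727-150155169), measured 2.750 and 2.540 FPKM in R1, 1.181 and 1.158 in 16-6, 1.337 and 1.626 in 32, 6.074 in S8 and 2.560 in T2. No line passed against R1, but 16-6 was below S8 (-1.71, SE 0.10, limma adjusted p = 0.000188), and so was 32 (-1.51, SE 0.10, limma adjusted p = 0.000371). Cd81, a tetraspanin of the cell surface (chr7:150238655-150253835), was the most abundant member of the cluster. It measured 302.8 and 308.5 FPKM in R1, 359.1 and 378.8 in 16-6, 214.3 and 222.5 in 32, 201.6 in S8 and 183.7 in T2, and passed only between 16-6 and T2 (1.00, SE 0.05, limma adjusted p = 0.000337). Kcnq1ot1 lay between 0.6233 and 1.598 FPKM and Tssc4 between 18.01 and 32.65 FPKM, and neither passed a contrast. Kcnq1, a potassium channel subunit that contains Kcnq1ot1 within its locus, did not exceed 0.1142 FPKM and was not tested. Cdkn1c and Phlda2 were thus both highest in S8, and the ratio of Cdkn1c to Phlda2 FPKM was 0.360 in S8 and 0.323 in T2 against 0.105 to 0.171 in the other libraries.

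At the Peg3 locus on chromosome 7, the paternally expressed zinc finger gene Peg3 (chr7:6658671-6683130) and its maternally expressed neighbour Zim1 (chr7:6628154-6649143) lay on opposite sides of R1. Peg3 measured 31.55 and 32.72 FPKM in R1, 52.11 and 52.25 in 16-6, 49.84 and 51.13 in 32, 33.70 in S8 and 80.14 in T2. All iPSC libraries were above R1, with S8 almost at the level of R1 and T2 well above the rest. The rise in T2 was 1.29 (SE 0.05, limma adjusted p = 0.000119), and 16-6 and 32 had differences of 0.68 (SE 0.04) and 0.64 (SE 0.04). Zim1 measured 1.279 and 1.588 FPKM in R1, 0.8152 and 0.5919 in 16-6, 0.2185 and 0.3002 in 32, 0.1273 in S8 and 0.4403 in T2. It fell in S8 (-1.11, SE 0.14, limma adjusted p = 0.00151), a call lost under quantile normalization (-0.83). Zim1 reached 1 FPKM only in R1, and so entered the test through the line in which it was high. The implied fragments of Zim1 were 63 and 82 in R1 and 6 in S8. Usp29, a deubiquitinase gene of the same locus, stayed between 0.1813 and 0.6425 FPKM and was not tested. The RefSeq windows around the starts of Peg3 and Usp29 point away from each other and share 263 bases (chr7:6730370-6730632, GRCm38.p6). The 250 bases before the Peg3 start (chr7:6730420-6730669, minus strand) are shown because Peg3 was abundant and Usp29 was below 1 FPKM although the windows overlap. Capitals mark CpG, of which there are 8.
Peg3: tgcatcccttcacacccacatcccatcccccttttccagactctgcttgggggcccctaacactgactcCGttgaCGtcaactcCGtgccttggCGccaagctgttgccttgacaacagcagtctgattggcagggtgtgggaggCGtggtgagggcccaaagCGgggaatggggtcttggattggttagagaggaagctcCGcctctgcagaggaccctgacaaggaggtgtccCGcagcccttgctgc

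Peg10 and Sgce are paternally expressed from a shared upstream region on chromosome 6. They passed the threshold against R1 in different lines, though both were below R1 in 32, S8 and T2. Peg10, derived from a retrotransposon and required for the placenta (chr6:4697306-4710516), measured 108.7 and 110.2 FPKM in R1, 104.8 and 101.8 in 16-6, 86.20 and 95.10 in 32, 44.64 in S8 and 88.84 in T2. It fell only in S8 (-1.28, SE 0.07, limma adjusted p = 0.000152). The differences of Peg10 of -0.27 (SE 0.06) in 32 and -0.30 (SE 0.07) in T2 stayed under the fold limit. Sgce, epsilon-sarcoglycan (chr6:4624350-4697204), measured 8.368 and 8.920 FPKM in R1, 9.678 and 8.639 in 16-6, 2.618 and 3.635 in 32, 4.304 in S8 and 5.634 in T2. It fell only in 32 (-1.24, SE 0.13, limma adjusted p = 0.00125), and quantile normalization brought this to -0.93. The differences of Sgce of -0.86 (SE 0.16) in S8 and -0.54 (SE 0.16) in T2 stayed under the fold limit. Between 32 and S8 Sgce did not pass (-0.37, SE 0.16). Sgce tracked the fibroblast markers closely over the 5 line means (correlation 0.97, against 0.35 for Peg10), and their part was not tested. The ratio of Peg10 to Sgce FPKM was 32.9 and 26.2 in 32 and 10.4 to 15.8 in the other libraries. Of the maternally expressed genes nearby, Ppp1r9a (neurabin) ranged from 3.381 to 7.028 FPKM and Calcr (the calcitonin receptor) from 0.7375 to 2.227 FPKM without passing a contrast. Asb4, a component of ubiquitin ligases, did not exceed 0.4005 FPKM and was not tested.

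The Snrpn cluster on chromosome 7 is the counterpart of the human Prader-Willi region. Of its 5 paternally expressed genes, 4 were above R1 in all 4 iPSC lines, as were 20.1% of all genes. The iPSC lines share the R1 libraries, and of these 4 genes only Magel2 passed the threshold. Snrpn itself, a spliceosomal protein gene (chr7:67127388-67285105), measured 110.7 and 125.1 FPKM in R1, 168.2 and 175.3 in 16-6, 249.4 and 222.1 in 32, 209.6 in S8 and 217 in T2. All iPSC libraries exceeded both R1 libraries. The log2 differences were 0.54 (SE 0.08), 0.99 (SE 0.08), 0.83 (SE 0.10) and 0.88 (SE 0.10) in 16-6, 32, S8 and T2. Their limma adjusted p was 0.00473, 0.000595, 0.00156 and 0.00196, but none reached the fold limit, so that Snrpn did not pass.

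Magel2, a MAGE family gene that is usually active in the hypothalamus (chr7:69521865-69526526), measured 0.7054 and 0.6944 FPKM in R1, 2.103 and 2.191 in 16-6, 2.747 and 2.967 in 32, 1.437 in S8 and 2.963 in T2. It rose in 32 (1.18, SE 0.07, limma adjusted p = 0.000208) and T2 (1.22, SE 0.08, limma adjusted p = 0.0005), and gave 0.89 (SE 0.07) in 16-6. Magel2 was below 1 FPKM in R1 and entered the test through the iPSC lines, in which it was higher. Mkrn3, an E3 ubiquitin ligase gene, went from 0.9995 and 1.020 FPKM in R1 to 1.456 to 2.383 in the iPSC libraries, and Peg12, a relative of the GSK3 inhibitor Frat1, from 1.175 and 1.572 FPKM in R1 to 1.782 to 3.576. Neither passed a contrast. Ndn, which encodes the growth suppressor necdin (chr7:69493163-69494813), differed from the rest. It measured 17.65 and 23.03 FPKM in R1, 43.88 and 42.96 in 16-6, 15.85 and 15.39 in 32, 18.56 in S8 and 18.81 in T2, high in 16-6 alone. The rise in 16-6 was 1.07 (SE 0.12, limma adjusted p = 0.00173), and 0.89 without the first library of R1. It was above each of the other 4 lines past the threshold, by 1.42 (SE 0.12) over 32, 1.18 (SE 0.15) over S8 and 1.17 (SE 0.15) over T2. The summed fibroblast markers were also highest in 16-6, and the correlation of their mean with Ndn was 0.79 over the 5 line means. Their part was not tested. Ube3a, the ubiquitin ligase gene of the cluster that is maternal in neurons only, ranged from 28.66 to 45.80 FPKM and passed no contrast. The ratio of Snrpn to Ube3a FPKM was 2.69 and 3.08 in R1 and 3.83 or more in every iPSC library, with the highest value of 7.31 in S8.

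**Figure D3:**
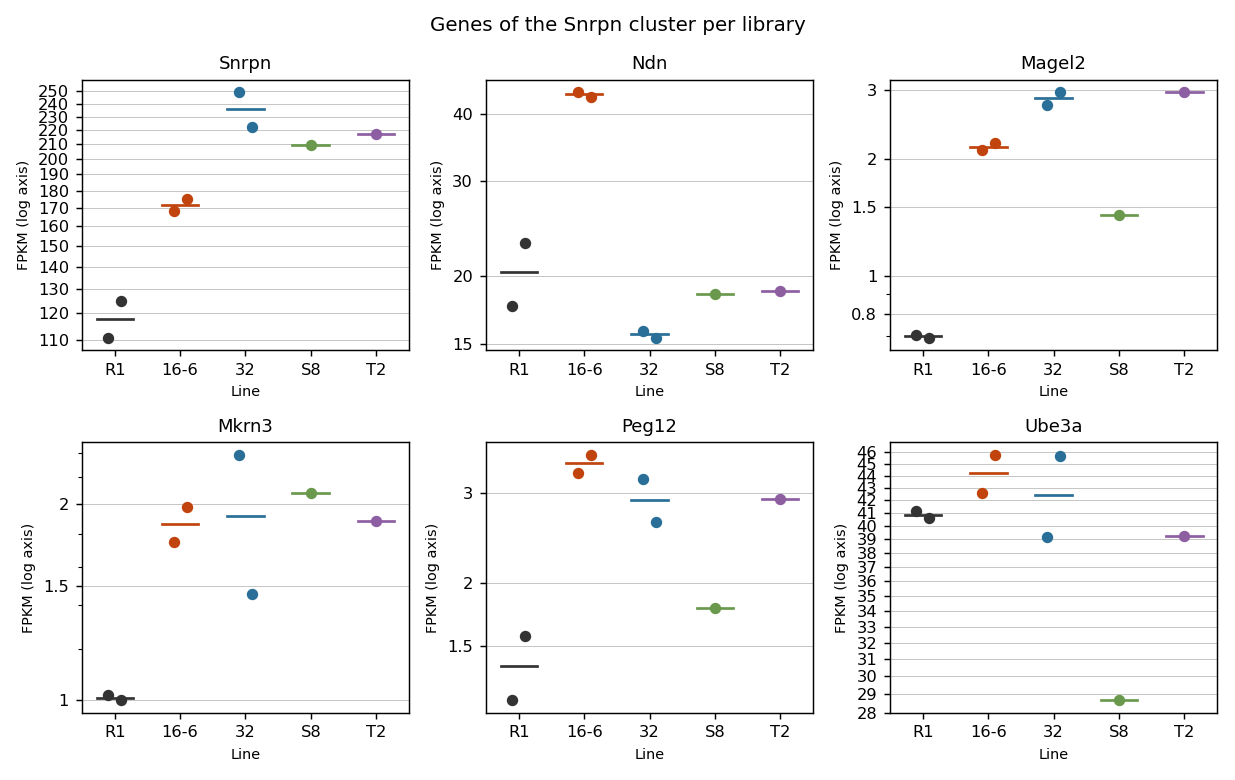
FPKM of the 6 genes of the Snrpn cluster on log axes, with 1 point per library and a bar at the mean of each line. The iPSC libraries lie above both R1 libraries for Snrpn, Magel2, Mkrn3 and Peg12, whereas Ndn is high in 16-6 only (43.88 and 42.96) and Ube3a shows no such shift.

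Nnat encodes neuronatin, a small membrane protein, and lies within an intron of Blcap on chromosome 2 (Nnat chr2:157385846-157388255, Blcap chr2:157382098-157392097). Nnat measured 17.80 and 17.35 FPKM in R1, 40.59 and 40.80 in 16-6, 25.52 and 32.89 in 32, 24.28 in S8 and 46.32 in T2. All iPSC libraries were above R1, and it rose in 16-6 (1.17, SE 0.12, limma adjusted p = 0.0012) and T2 (1.35, SE 0.14, limma adjusted p = 0.00145). Blcap measured 31.57 and 29.46 FPKM in R1, 36.06 and 41.05 in 16-6, 20.42 and 18.58 in 32, 15.18 in S8 and 17.65 in T2. It passed no contrast with R1, but 16-6 was above S8 (1.29, SE 0.10, limma adjusted p = 0.000397) and T2 (1.08, SE 0.10, limma adjusted p = 0.00136). The ratio of Nnat to Blcap FPKM was 0.564 and 0.589 in R1 and 0.994 or more in every iPSC library. The loci overlap by 2410 bases, the whole length of Nnat, and the kit does not mark strand. No exons of Nnat and Blcap overlap by 50 bases or more in the annotation. Exons of AL672259.1 on the opposite strand do overlap those of Nnat, and strand cannot assign the reads they share. The same holds for Igf2 with Igf2as, Mest with Copg2 and Tssc4 with Trpm5.

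Peg13, a noncoding RNA of chromosome 15 (chr15:72636030-72640754), measured 1.131 and 1.491 FPKM in R1, 4.926 and 4.407 in 16-6, 1.758 and 1.783 in 32, 1.266 in S8 and 2.090 in T2. It rose in 16-6 only (1.30, SE 0.10, limma adjusted p = 0.000604). Impact, an inhibitor of the GCN2 stress kinase encoded on chromosome 18 (chr18:13130761-13151457), measured 105.3 and 104.1 FPKM in R1, 156 and 170.1 in 16-6, 194.1 and 189.7 in 32, 70.36 in S8 and 158.2 in T2. No difference from R1 reached the fold limit, the nearest being 0.87 (SE 0.05) in 32, yet S8 was below 16-6, 32 and T2 past the threshold, with 1.20 (SE 0.06) and 1.43 (SE 0.06) for 16-6 and 32 against S8, and -1.16 (SE 0.07) for S8 against T2.

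The remaining members passed no contrast between lines. Gnas, which encodes the stimulatory G protein alpha subunit (chr2:174109821-174172243), measured 294 and 316.7 FPKM in R1, 537.2 and 534.4 in 16-6, 278.8 and 263.4 in 32, 457.8 in S8 and 459.5 in T2. Its largest difference from R1 was 0.81 (SE 0.05) in 16-6, and 16-6 against 32 gave 0.98 (SE 0.05), which passed the fold limit under quantile normalization and median ratio scaling. Nespas, antisense at the same locus and not separable from it by strand, lay between 1.238 and 2.998 FPKM. Mest, an enzyme of the alpha/beta-hydrolase fold, went from 57.99 and 65.19 FPKM in R1 to 107.4 in S8 and 121.6 in T2, with log2 differences of 0.79 (SE 0.10) and 0.97 (SE 0.10). Slc38a4, an amino acid transporter, ranged from 63.60 to 92.36 FPKM, and the retrogene Mcts2 from 31.71 to 51.72. Commd1 ranged from 42.03 to 77.41 FPKM, and Zrsr1, whose exons overlap those of Commd1 on the opposite strand, from 2.902 to 4.338. Inpp5f ranged from 10.71 to 13.68 FPKM and Nap1l5 from 0.7425 to 1.689. Rasgrf1, a Ras exchange factor, did not exceed 0.3833 FPKM and was not tested. Together with Calcr, Ddc, Kcnq1ot1, Mkrn3, Peg12, Ppp1r9a, Snrpn, Tssc4 and Ube3a, these were 18 tested genes that passed in no comparison.

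By assigned parental allele, the median of the paternally expressed genes lay slightly above R1 and that of the maternally expressed genes near it. Over the mean of the 4 iPSC lines, the median log2 difference from R1 was 0.24 for the 23 paternal genes tested and -0.05 for the 16 maternal genes, beside -0.03 for all genes. The sign of the maternal value turned under quantile normalization (0.05). Line by line, the paternal medians were 0.21 in 16-6, 0.23 in 32, -0.02 in S8 and 0.33 in T2, and the maternal medians were 0.14, -0.35, -0.10 and 0.04. Both kinds held genes that rose and genes that fell. Many of the maternal genes are assigned to certain tissues, Ascl2, Cd81, Tssc4 and Ppp1r9a to placenta. Calcr, Ube3a, Commd1 and Blcap are assigned to brain and Gnas to some tissues. Of the paternal genes, Snrpn, Ndn, Magel2, Mkrn3 and Peg12 share a cluster. The medians thus describe the assigned groups, and which allele was expressed in these lines was not measured. Without regard to size, 12 of the 39 genes were above R1 in all 4 lines, as were 20.1% of all genes. Of the 12, 9 were paternal (Magel2, Mest, Mkrn3, Nespas, Nnat, Peg12, Peg3, Snrpn and Zrsr1) and 3 were maternal (Calcr, Phlda2 and Tssc4). A further 6 were below R1 in all 4 lines, beside 21.9% of all genes, the paternal Airn, Igf2 and Peg10 and the maternal H19, Slc22a18 and Zim1. The 4 lines share the R1 libraries, so that these counts are a description. For the mean of the iPSC lines, 4 of 39 genes (10.3%) passed, beside 6.41% of all genes, and all of them were lower than in R1, beside 4.56% of all genes. They were H19 (-1.83, SE 0.04), Igf2 (-1.69, SE 0.04), Airn (-1.14, SE 0.11) and Slc22a18 (-1.03, SE 0.10). Quantile normalization left 2 lower genes, H19 and Igf2, and 1 higher gene, Magel2. The call for Slc22a18 was also lost without the first library of R1 (-0.95) and without the second library of 32 (-0.99).

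**Figure D4:**
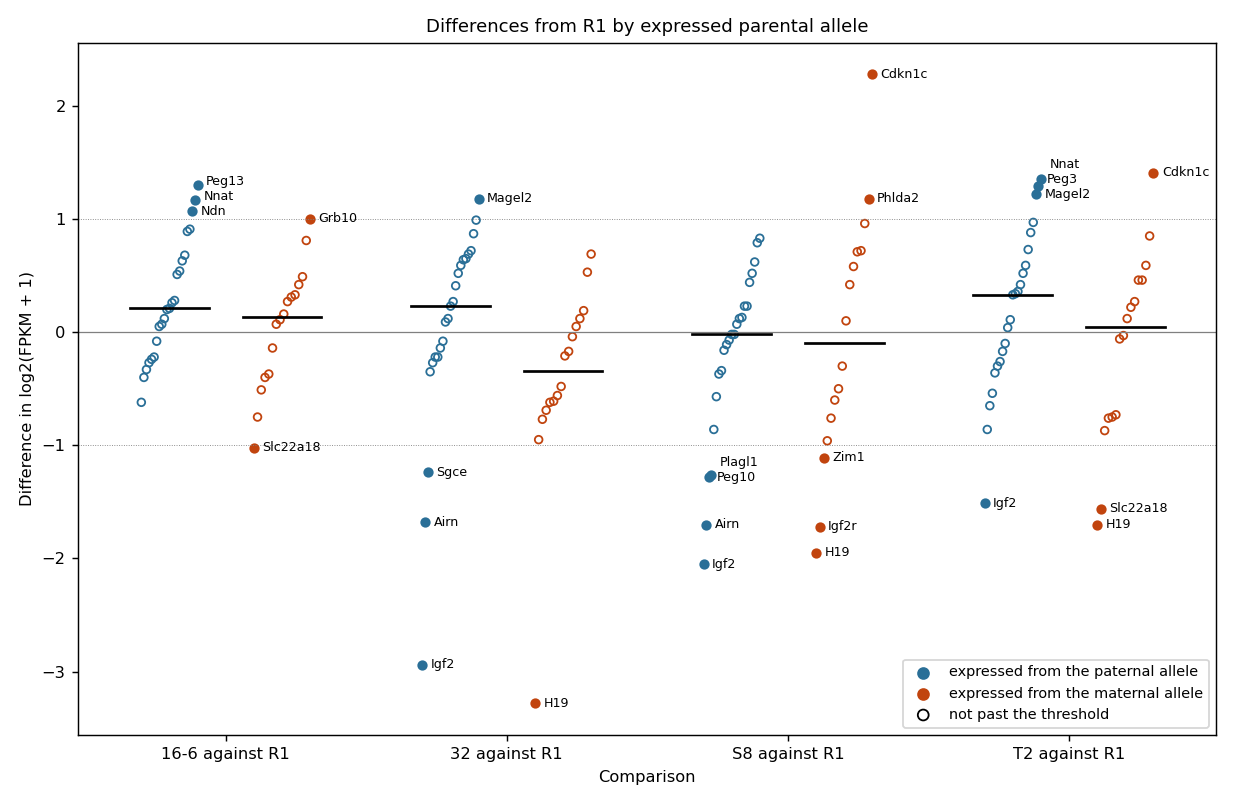
Difference in log2(FPKM + 1) from R1 for each tested imprinted gene in each iPSC line, split by expressed parental allele, with a black bar at each median and filled points for genes past the threshold. Dotted lines mark the fold limit of 1, and the lowest points are H19 (-3.28) and Igf2 (-2.94) in line 32.

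The 5 lines, R1 included, were also compared together and in pairs. An F test over the 5 lines, with a range of line means of at least 1, was passed by 21 of 39 genes (53.8%), beside 34.5% of all genes. They comprised 11 of the 23 paternal and 10 of the 16 maternal genes. Of the 21, Magel2, Nnat, Phlda2, Slc22a18 and Zim1 passed in pairs of lines only against R1. With R1, 16-6 and 32 alone, which leaves out the single libraries, the F test was passed by 10 genes, beside 16.4% of all genes. Between the mesodermal lines 16-6 and 32, 7 of 39 genes (17.9%) passed, beside 10.3%, and all 7 were higher in 16-6, beside 9.22% of all genes in that direction. They were H19 (2.91, SE 0.04), Igf2 (2.67, SE 0.05), Grb10 (1.69, SE 0.06), Ndn (1.42, SE 0.12), Airn (1.35, SE 0.13), Sgce (1.31, SE 0.13) and Peg13 (1.03, SE 0.10), of which Peg13 was lost under quantile normalization (0.67) and without the first library of 16-6 (0.96). The summed fibroblast markers were 1711 and 1705 FPKM in 16-6 and 71.28 and 70.64 in 32, and their part in these differences was not tested. Between S8 and T2, only Impact and Peg3 passed (2 of 39, 5.13%, beside 2.75%), both lower in S8 (beside 1.83% of all genes). This contrast compares 1 library with 1 library. Against the single libraries, 16-6 differed in 13 of 39 genes from S8 (33.3%, beside 17.3%) and in 6 from T2 (15.4%, beside 8.07%), and 32 differed in 7 from S8 (17.9%, beside 11.8%) and in 3 from T2 (7.69%, beside 7.43%).

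Ratios between neighbours are free of any scaling shared by the genes of a library. Of the 10 neighbouring pairs examined, H19 to Igf2 varied least, by 1.44-fold between the lowest and the highest library. Commd1 to Zrsr1 varied by 2.04-fold and Snrpn to Ube3a by 2.72-fold. Igf2r to Airn varied most (11.6-fold), followed by Cdkn1c to Kcnq1ot1 (10.2-fold). Airn had 2.5 to 27.1 implied fragments per library and Kcnq1ot1 795.7 to 2094.1.

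**Figure D5:**
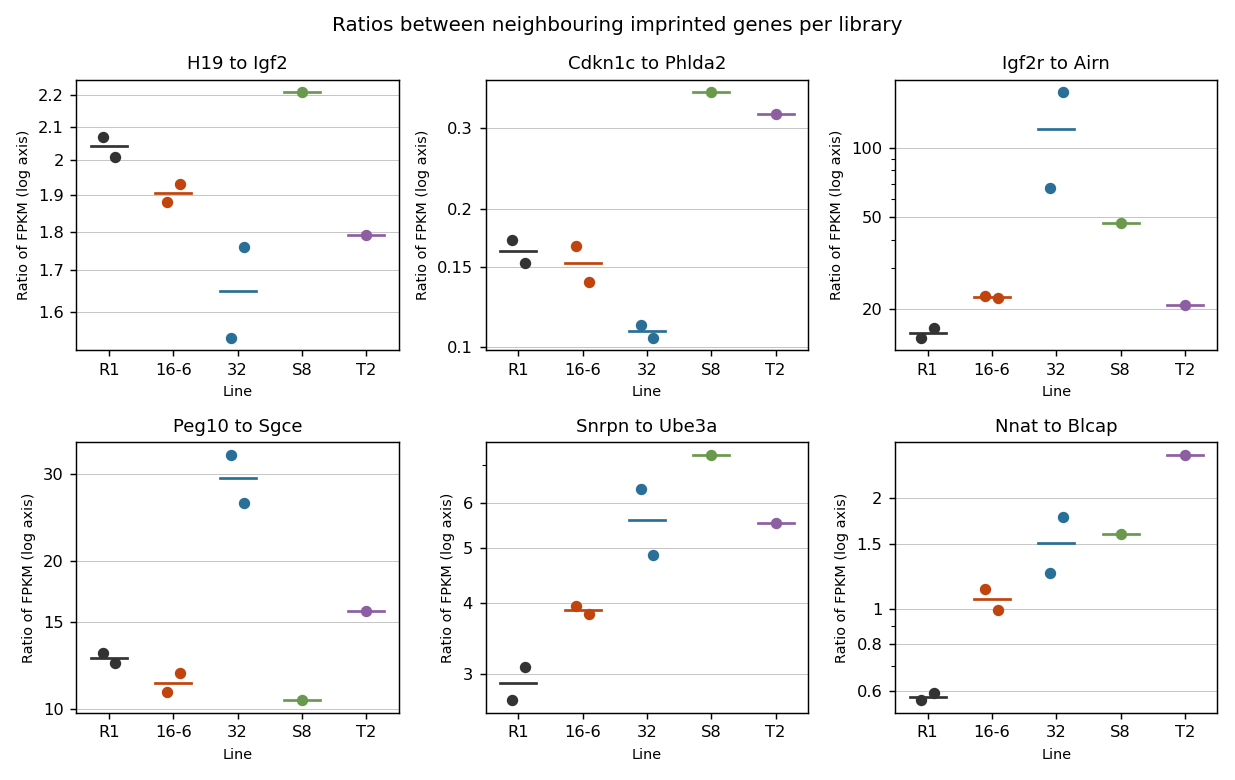
Ratio of FPKM between neighbouring imprinted genes on log axes, with 1 point per library and a bar at the mean of each line, and with a different range in each panel. H19 to Igf2 stays between 1.54 and 2.21, whereas Igf2r to Airn runs from 15 to 175.

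Over the 300 bases around the start (250 before and 50 after, the first window listed for each gene), 35 of the 43 members matched a RefSeq window of GRCm38.p6, and H19, Cdkn1c, Kcnq1, Peg10, Sgce, Impact, Nespas and Peg13 did not. The median number of CpG per window was 17 in these 35 genes and 7 in all 27025 genes of the table, and it was 11.5 in the 20 paternal and 23 in the 15 maternal genes. The letters TGCCGC, the methylated hexamer known as the recognition site of ZFP57, were searched on both strands and occurred in 8 of the 35 windows (22.9%), beside 11.6% of all windows. They occurred in 4 of 20 paternal windows (20%) and in 4 of 15 maternal windows (26.7%). Igf2, Mest and Snrpn held them only in another of their windows, and over all windows of a gene 11 of the 35 genes (31.4%) had a match, beside 13.1% of all genes. A match of letters is not a bound site.

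Of 12 factors listed for the setting, protection or keeping of imprints, 11 were tested. In each iPSC line 1 of the 11, not always the same gene, passed the threshold against R1. Of all genes tested, 7.11% passed in 16-6, 9.77% in 32, 16.7% in S8 and 10.5% in T2, so that the factors were near the background. Zfp57, which binds the methylated hexamer and recruits Trim28, measured 165.2 and 162.1 FPKM in R1, 78.86 and 74.67 in 16-6, 147 and 163.9 in 32, 98.36 in S8 and 57.09 in T2. It fell in 16-6 (-1.08, SE 0.06, limma adjusted p = 0.000297) and in T2 (-1.50, SE 0.08, limma adjusted p = 0.000259). Against R1, 0 of the 11 rose and 1 fell in 16-6, 1 rose and 0 fell in 32, 1 rose and 0 fell in S8, and 0 rose and 1 fell in T2. By adjusted p alone, without the fold limit, 7 of the 11 differed from R1 in 16-6, 6 in 32, 10 in S8 and 8 in T2. The shares of all genes were 55.6%, 61.5%, 66.7% and 57.9%. In S8 the factors that differed included Trim28 (0.95, SE 0.07, limma adjusted p = 0.000286) and the zinc finger gene Zfp445 (-0.82, SE 0.07, limma adjusted p = 0.000403), both just inside the fold limit. The gene that rose in 32 was Dppa3 (2.16, SE 0.07), a protector of maternal methylation in the zygote, and the gene that rose in S8 was Dnmt3l (1.62, SE 0.12), the cofactor of de novo methylation. Both are named here because each is the only call in its line, a choice made after their values were seen.

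A second list held 31 other imprinted genes, mostly placental or tissue-specific ones, of which 29 had an entry and 20 were tested. In 16-6 2 rose and 1 fell, in 32 1 rose and 6 fell, in S8 0 rose and 4 fell, and in T2 1 rose and 2 fell. Of all genes tested, 3.58% rose and 3.53% fell in 16-6, and 1.54% and 8.23% in 32. The shares were 6.93% and 9.74% in S8, and 3.95% and 6.54% in T2. The median log2 differences were 0.20, -0.44, -0.64 and -0.41, beside -0.03, -0.02, -0.03 and -0.03 for all genes. Dcn, which encodes the matrix proteoglycan decorin and is abundant in fibroblasts, fell in all 4 lines, from 216.5 and 204 FPKM in R1 to 32.91 and 33.28 in 16-6, 0.6048 and 0.8900 in 32, 11.08 in S8 and 11.02 in T2. The fibroblast marker Lum, a proteoglycan of the same family, fell in all 4 lines as well, with -2.72 (SE 0.10) in 16-6 and -5.60 (SE 0.10) in 32. Tfpi2, a protease inhibitor, rose in 16-6 (2.15, SE 0.21) and fell in 32 (-2.38, SE 0.21), and Osbpl5, a lipid transfer protein gene of the Kcnq1 domain, did likewise (1.19, SE 0.08 and -1.53, SE 0.08). Ampd3 fell in 32 (-1.23, SE 0.06) and T2 (-1.05, SE 0.08), and Pon3 in 32 (-1.68, SE 0.10) and S8 (-1.09, SE 0.13). The summed fibroblast markers were highest in 16-6 and lowest in 32. Lum (50.58 and 59.25 FPKM in R1, 7.077 and 7.907 in 16-6) and Col3a1 were instead highest in R1. The part of feeder cells in these values was not tested.

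For 6 members, the genes with the most similar profile were sought by the correlation of log2(FPKM + 1) over the 5 line means, a likeness that 5 points make easy to reach. H19 was most like Lgals3bp (0.9985), Peg3 like Mir665 (0.9978), Cdkn1c like Cacng8 (0.9998), Peg10 like Fam135a (0.9972), Snrpn like Lss (0.9987) and Grb10 like Wisp1 (0.9996). A correlation above 0.8 with the mean of the fibroblast markers was found for 5 of the 39 imprinted genes (12.8%, Sgce, H19, Igf2, Grb10 and Airn) and for 10.4% of all genes tested, so that the imprinted genes were near the background in this respect. Between replicate libraries, the median absolute log2 difference of the 39 genes was 0.083 in R1, 0.046 in 16-6 and 0.126 in 32, and the largest was 0.37, 0.21 and 0.46.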

How the data were processed

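RNA-seq expression was analysed in 8 libraries of 5 mouse lines, grouped by the sample labels. Per the labels and the study's methods, the authors mapped poly(A) paired-end reads to mm9 with TopHat2 2.0.4, retained uniquely placed reads and derived the deposited FPKM from them with Cufflinks, for which the submitters' processing notes name version 2.0.0. The deposited FPKM sum to far more than usual, so every value was divided by 12725.7, a constant that sets the median library total to 1000000 and leaves ratios as they were. Coordinates are those of the files, counted from 1. Depth was inferred from the confidence limits, which gave whole fragment numbers within 0.01 for 80.8% to 82.3% of genes under 50 fragments. The 13693 genes that reached 1 FPKM in any library were fitted as log2(FPKM + 1), a scale that understates changes of low genes, with limma 3.58.1 in R 4.3.3, using lmFit and trended eBayes. All 8 libraries entered 1 fit, with Benjamini-Hochberg adjustment over all genes. The fit was tested on simulated data. The members, the marker lists and the other gene lists were chosen with earlier results of these data known. Every member is named, and those past the threshold in a comparison get each library's value. In the lists of imprint factors and other imprinted genes, those called in at least 2 of the 4 contrasts with R1 are named. For likeness, the nearest gene of 6 cluster-leading members is named. Alternatives were another pseudocount, other filters and scalings, fewer lines, leaving out each replicate, and the replicate number as a block. Replicate numbers did not pair the samples (correlations of replicate differences -0.097, 0.001 and 0.028). Other steps used Python 3.11.15, pandas 2.3.3 and numpy 2.4.6.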

Additional observations from a re-analysis of the deposited data

Results flagged for a closer look

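Some genes lay on opposite sides of R1 in 2 iPSC lines, with at least 1 of the lines and the difference between the lines itself past the threshold in limma. For Cdkn1c the difference was -2.32 for 32 against S8 (limma adjusted p = 8.73e-05) and -1.45 for 32 against T2 (limma adjusted p = 0.000303). For Grb10 it was 1.69 for 16-6 against 32 and 1.30 for 16-6 against S8 (limma adjusted p = 3.36e-05 and 0.00015). For Ndn it was 1.42, 1.18 and 1.17 for 16-6 against 32, S8 and T2 (limma adjusted p = 0.000538, 0.00158 and 0.00304). Igf2r gave 1.78 for 16-6 against S8 (limma adjusted p = 2.95e-05) and Peg13 1.32 (limma adjusted p = 0.000636). Plagl1 gave 1.46 for 16-6 against S8 and 1.37 for 32 against S8 (limma adjusted p = 0.000195 and 0.000336). Sgce gave 1.31 for 16-6 against 32 (limma adjusted p = 0.000946). In 9 of these 12 comparisons a line with a single library, S8 or T2, takes part, and several lines lay only slightly off R1 on their side, such as Cdkn1c in 32 (-0.04), Peg13 in S8 (-0.02) and Igf2r in 16-6 (0.07).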

How the results depend on the processing

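The 37 log2 differences of single genes followed here were chosen because they were past the threshold in the main fit. Over 516 values under the alternatives, 499 kept their direction and their side of the threshold, 17 kept the direction but lost the threshold, and 0 turned. Several alternatives cannot move an estimate, such as leaving out a replicate of a line outside the contrast. Many of the 499 could thus change only through their adjusted p. Quantile normalization accounted for 7 of the 17. Counts of genes past the threshold moved more. A pseudocount of 0.1 gave 8 in 16-6, 8 in 32 and 8 for the mean of the iPSC lines. Keeping only genes that reached 1 FPKM throughout left 32 members and 3 calls in 32, since Airn and Magel2 were no longer tested. Without a fold minimum the counts were 26 in 16-6, 26 in 32, 28 in S8, 28 in T2, 28 for the mean, 24 for 16-6 against 32 and 38 among the 5 lines. The count among lines was 10 with R1, 16-6 and 32 only, and 10 with the replicate block on those 6 libraries. With the replicate block the other counts were 5 in 16-6, 5 in 32, 4 for the mean of 16-6 and 32 and 7 for 16-6 against 32, and only Slc22a18 in the mean (-0.89) lost its call, as it did without the block on the same 6 libraries. Leaving out each replicate gave 2 to 6 calls in 16-6, a paternal median of 0.21 to 0.28 and a maternal median of -0.07 to -0.03. The maternal median was 0.05 under quantile normalization. Depth limits Airn most, with 2.5 to 27.1 implied fragments.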
